A study of Mus musculus with 10 samples.

Results

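Deep-layer neuron identity genes are genes by which the neurons of cortical layers 5 and 6 are recognised. The 9 analysed here, *Tbr1*, *Bcl11b*, *Fezf2*, *Foxp2*, *Tle4*, *Nxph4*, *Crym*, *Etv1* and *Sox5*, were chosen by name, without a cut on their values but with earlier results of these data known. *Tbr1* and *Bcl11b* were included because they encode TBR1 and CTIP2, the proteins the study stained as markers of layers 6 and 5. The 9 genes are part of the 22000 genes in the count table, and all 9 were among the 14344 genes kept by the filter on low counts. RNA-seq was performed on the prefrontal cortex (PFC) of 5 wild-type (WT) and 5 *Zbtb16* knockout (KO) mice, all labelled male and 7 weeks old, with 1 library per mouse. *Zbtb16* encodes PLZF, a BTB/POZ zinc finger transcription factor. The KO mice were of the B6.C3-Zbtb16lu/J line, homozygous for the spontaneous *lu* (luxoid) allele, a nonsense point mutation of the germline and so not limited to the cortex or to a stage of development. Staining for TBR1 and CTIP2 was made in the primary somatosensory cortex, whereas the RNA came from the PFC.

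Layer 6 neurons project mainly to the thalamus, and layer 5 holds the neurons that project to the brainstem and spinal cord as well as neurons that stay within the telencephalon. During development the T-box factor TBR1 favours the corticothalamic identity and represses *Fezf2* and *Bcl11b*, while FEZF2 acts through CTIP2 to favour the subcerebral identity, and SOX5 delays that programme in the earliest born neurons. In the adult cortex these genes stay on at levels that differ between layers, so that their RNA in whole tissue reflects both how many such neurons there are and how much RNA each neuron holds, which cannot be told apart in these bulk samples.

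Promoter sequence is shown for *Tbr1* and *Bcl11b* because they are the genes of the stained layer markers and their ratio is reported below. RefSeq promoters of GRCm38.p6, from 250 bases before to 50 bases after a transcript start, were matched by symbol for 6 of the 9 genes, which have 8 promoters in all; *Foxp2*, *Nxph4* and *Crym* are only named. The first lies at chr2:61804203-61804502 on the plus strand and the second at chr12:108003365-108003664 on the minus strand, and capitals mark the SOX core motif AACAAT.
Tbr1: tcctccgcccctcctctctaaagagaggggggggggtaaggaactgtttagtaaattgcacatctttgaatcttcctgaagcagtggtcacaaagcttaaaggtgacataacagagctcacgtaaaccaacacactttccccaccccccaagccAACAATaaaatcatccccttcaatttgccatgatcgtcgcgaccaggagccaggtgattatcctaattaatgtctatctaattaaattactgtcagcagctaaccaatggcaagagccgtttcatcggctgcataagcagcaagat
Bcl11b: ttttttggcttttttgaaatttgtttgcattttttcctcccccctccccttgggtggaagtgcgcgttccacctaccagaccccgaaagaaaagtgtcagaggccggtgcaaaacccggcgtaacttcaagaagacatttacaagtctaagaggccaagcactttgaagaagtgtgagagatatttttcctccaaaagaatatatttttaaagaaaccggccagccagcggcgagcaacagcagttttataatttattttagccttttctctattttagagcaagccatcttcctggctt
Each window was searched on both strands for the T-box motif AGGTGNGA, the SOX motif AACAAT, the forkhead motif GTAAACA and the ETS motif CGGAAG, which stand for the families of TBR1, SOX5, FOXP2 and ETV1. AACAAT or its complement was found in the windows of *Tbr1*, at position -96 from the start, *Tle4* and *Etv1*, so in 3 of 8 promoters, and in 10.7% of all 32851 promoters of this length. The T-box, forkhead and ETS motifs were in 0 of the 8 promoters and in 5.43%, 3.65% and 16.9% of all. No match overlapped another motif, and a match is a string of letters, not a measured binding site.

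Libraries held between 30220122 and 51231439 counts, so that 3 counts, taken as the floor of detection, were 0.0586 to 0.0993 CPM (counts scaled to a common library size). *Zbtb16* itself was between 42.1 and 52.8 CPM in KO mice and between 70.7 and 88.4 CPM in WT mice, without overlap. RNA integrity number (RIN) fell into a class of 8.1 to 8.3 with 2 mice of each genotype and a class of 9.5 to 9.8 with 3 of each. KO mouse 3 had 1 count on 4 Y-linked genes against 4376 to 8182 in the other mice and stands against its label of male, and WT mouse 5 had the highest sum of striatal medium spiny neuron markers (594 CPM, against 298 to 493 in the other mice). Excitatory cortical neuron markers summed to between 7263 and 8679 CPM, and choroid plexus markers to between 1.34 and 3.38 CPM.

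Across the 10 mice, the order of the 9 genes was compared as CPM per kilobase of exon (CPM/kb), a level that takes the length of each gene into account. The length was that of all annotated exons of a gene joined over its transcripts, and the transcripts present may be shorter. *Tbr1* was highest at 31.3 ± 1.94 CPM/kb (SD, n = 10), above 89.1% of the genes with a known exon length, followed by *Crym* at 18.9 ± 4.82 and *Fezf2* at 14.5 ± 1.81 CPM/kb. Then came *Tle4* at 10.5 ± 0.720, *Bcl11b* at 9.32 ± 0.829 and *Etv1* at 8.81 ± 0.885 CPM/kb. *Sox5* at 3.81 ± 0.182, *Nxph4* at 1.71 ± 0.321 and *Foxp2* at 0.922 ± 0.120 CPM/kb were lowest, and *Foxp2* was above 17.6% of genes. The ranges of neighbours in this order overlapped for *Crym* and *Fezf2*, which kept the order in 8 of 10 mice, for *Tle4* and *Bcl11b*, which kept it in 10 of 10, and for *Bcl11b* and *Etv1*, which kept it in 6 of 10. The other neighbours were in the same order in 10 of 10 mice without overlap. This order depends on the joined exon length, which was 16.35 kb for *Foxp2* and 1.68 kb for *Nxph4*. In CPM *Foxp2* was above *Nxph4*, with means of 14.8 and 2.86 CPM in WT mice.

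**Figure D1:**
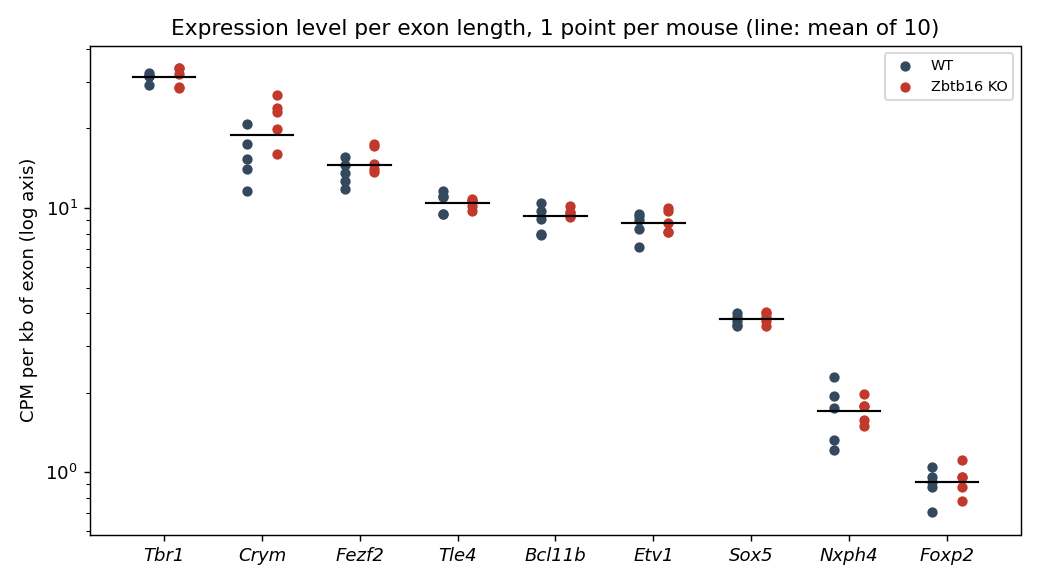
Level of each deep-layer gene in CPM per kilobase of exon (vertical log axis), 1 point per mouse for 5 WT and 5 KO mice and a line at the mean of the 10. *Tbr1* lies at 31.3 and *Foxp2* at 0.922 CPM/kb, and the points of the genotypes overlap for every gene.

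To determine whether RNA of deep-layer genes differed between the genotypes, all 14344 genes were tested in edgeR (quasi-likelihood test) with genotype and 3 surrogate variables in the model. Surrogate variables are weights per mouse that stand for unrecorded differences between libraries. None of the 9 genes passed the false discovery rate (FDR, Benjamini-Hochberg over all genes) of 0.05, where 0.844% of all genes did (121 genes, 86 higher and 35 lower in KO mice). At an unadjusted p under 0.05, 2 of the 9 passed, *Crym* and *Fezf2*, both higher in KO mice, beside 10.6% of all genes; DESeq2 called 1 of the 9, *Crym*, beside 1.72% of the genes it tested, and limma called 0, beside 0.0418%. None of the 9 had genotypes whose CPM did not overlap, beside 1.58% of all genes. Log2 fold changes (KO relative to WT) were positive for 7 and negative for 2 of the 9, with a median of 0.05 against -0.0044 over all genes, and the CPM of the 9 genes summed to 624 ± 15.8 in KO and 587 ± 30.7 in WT mice (SD, n = 5 each). *Crym* alone, at means of 74.4 CPM in KO and 53.8 CPM in WT mice, made up a large part of the difference between these sums. When the libraries were scaled to 6 excitatory neuron genes, the 132 genes then called split into 63 higher and 69 lower, and *Tbr1*, *Foxp2* and *Sox5* took a negative and *Nxph4* a positive sign. The median over all genes was -0.0357 in that fit, below the -0.0044 given above. *Tbr1*, *Foxp2* and *Sox5* moved in the same direction as this median, and *Nxph4* moved in the opposite one.

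**Figure D2:**
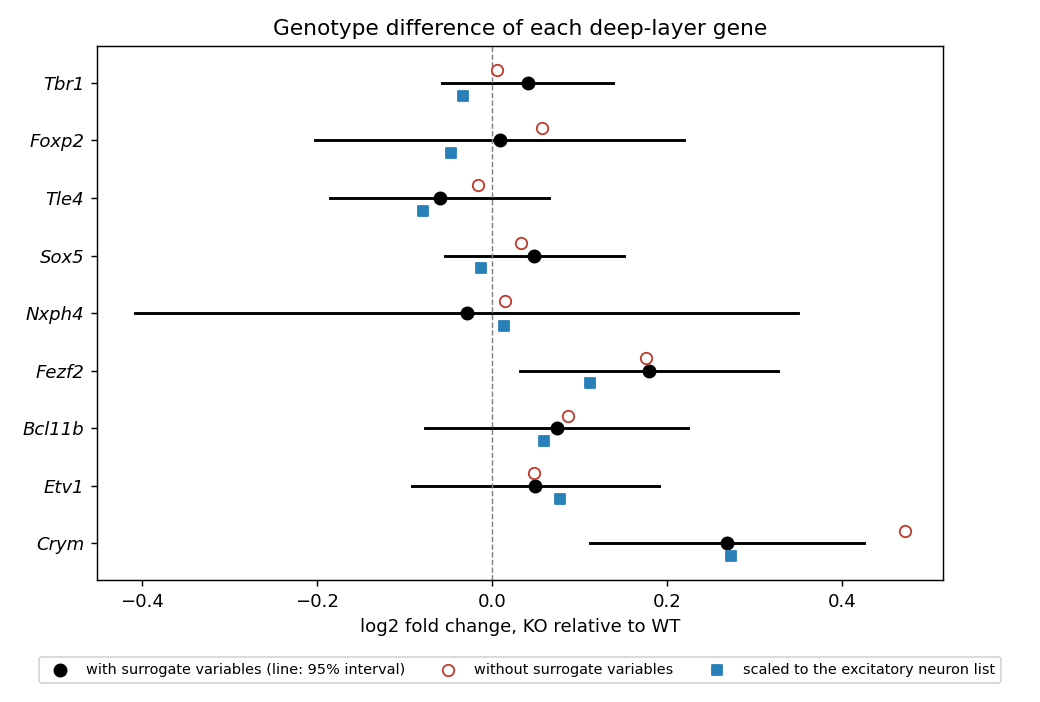
Log2 fold change of each deep-layer gene in KO relative to WT mice (horizontal axis) from edgeR's quasi-likelihood test with surrogate variables (filled, line: 95% interval), without them (open) and scaled to the excitatory neuron list (squares). Intervals of *Crym* (0.11 to 0.43) and *Fezf2* (0.03 to 0.33) lie above 0 before adjustment for the number of genes, and the other 7 include 0.

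Genes of layer 6 were examined first. *Tbr1*, on chromosome 2 (61802930 to 61814114, plus strand, GRCm38), encodes the T-box factor that specifies corticothalamic neurons. Its level in KO mice 1 to 5 was 185.5, 155.6, 185.6, 176.7 and 158.0 CPM, and in WT mice 1 to 5 it was 174.0, 160.5, 172.6, 177.1 and 173.9 CPM. KO mice lay on both sides of the WT range, with 2 above all WT mice and 2 below all of them. Means were 172.3 ± 14.6 CPM in KO and 171.6 ± 6.43 CPM in WT mice (SD, n = 5 each), which differed by less than the spread between mice, and the log2 fold change was 0.04 (SE 0.046, FDR = 0.827, edgeR's quasi-likelihood test). The 95% interval of the fold in this model was 0.961 to 1.10. Scaled to the excitatory neuron list, the log2 fold change was -0.03, beside a median of -0.0357 over all genes in that fit. The difference of mean log2(CPM + 1) relative to that list was -0.08 (exact permutation test, p = 0.159), where the list itself summed to 8108 CPM in KO and 7623 CPM in WT mice. Without surrogate variables the log2 fold change was 0.0054, and the difference of mean log2(CPM + 1) was 0.0021 (exact two-sided permutation test over all splits into 5 and 5, p = 0.992).

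*Foxp2*, on chromosome 6 (14901349 to 15441977, plus strand), encodes a forkhead repressor of layer 6 neurons that is also known in striatal medium spiny neurons. It was at 14.4, 12.8, 15.7, 15.7 and 18.3 CPM in the KO mice and at 11.5, 15.02, 14.4, 15.7 and 17.2 CPM in the WT mice. The highest value was that of a KO mouse and the lowest that of a WT mouse, and the others overlapped. *Tle4*, on chromosome 19 (14448150 to 14598051, minus strand), encodes a Groucho family corepressor kept by corticothalamic neurons. Its values were 55.7, 58.3, 60.6, 61.9 and 60.5 CPM in the KO mice and 54.1, 54.0, 66.1, 62.6 and 63.5 CPM in the WT mice, and all KO mice lay within the WT range. *Sox5*, on chromosome 6 (143828425 to 144781977, minus strand), encodes a SOXD factor of subplate and layer 6 neurons. It was at 53.9, 51.4, 57.8, 55.5 and 58.2 CPM in the KO mice and at 55.9, 57.4, 52.0, 51.5 and 53.9 CPM in the WT mice. The ranges of the genotypes overlapped, with 2 KO mice above and 1 below all WT mice. Log2 fold changes were 0.0087 for *Foxp2* (95% interval -0.20 to 0.22, FDR = 0.987), -0.06 for *Tle4* (-0.19 to 0.07, FDR = 0.793) and 0.05 for *Sox5* (-0.05 to 0.15, FDR = 0.798) by edgeR's quasi-likelihood test. *Sox5* had one of the narrowest intervals of the 9 genes.

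*Nxph4*, on chromosome 10 (127525473 to 127534559, minus strand), encodes neurexophilin 4, a secreted glycoprotein and a marker of layer 6b, the remnant of the subplate. It had the fewest reads of the 9 genes, 67 to 171 per mouse. Its level was 2.51, 2.97, 2.65, 2.98 and 3.30 CPM in the KO mice and 2.23, 2.93, 2.03, 3.25 and 3.84 CPM in the WT mice, so that the KO values fell within those of the WT mice. The log2 fold change was -0.03 with a fold of 0.754 to 1.27 at the bounds of its 95% interval (FDR = 0.977, edgeR's quasi-likelihood test), the widest interval of the 9, and its coefficient of variation was 10.8% in KO and 26.02% in WT mice. Its sign was positive without surrogate variables.

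Genes of layer 5 were then examined. *Fezf2*, on chromosome 14 (12342094 to 12348189, minus strand), encodes a zinc finger factor that selects the subcerebral projection neuron fate. It was at 53.3, 42.8, 52.2, 41.6 and 44.8 CPM in the KO mice and at 35.98, 41.3, 47.5, 44.3 and 38.6 CPM in the WT mice. All 5 KO mice were above the WT mean and 2 above all WT mice, while the other 3 overlapped with them. Means were 46.9 ± 5.45 and 41.5 ± 4.54 CPM (SD, n = 5 each), and the log2 fold change of 0.18 (SE 0.070, unadjusted p = 0.0205, FDR = 0.34, edgeR's quasi-likelihood test) did not pass the threshold. Without WT mouse 5 it was 0.10 (FDR = 0.804, edgeR's quasi-likelihood test) and without KO mouse 3 it was 0.17. By the exact permutation test of log2(CPM + 1) the difference was 0.17 (p = 0.127). This difference, which uses no surrogate variables, was 0.15 without WT mouse 5 and 0.13 without KO mouse 3.

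*Bcl11b*, on chromosome 12 (107910403 to 108003602, minus strand), encodes CTIP2, which acts downstream of FEZF2 in corticospinal neurons and is also known in striatal neurons and interneurons. It was at 75.6, 78.0, 78.0, 82.4 and 75.1 CPM in the KO mice and at 73.6, 64.6, 79.2, 64.4 and 84.8 CPM in the WT mice. The KO values lay close together inside a broad WT range, with a coefficient of variation of 3.71% in KO and 12.3% in WT mice, a difference in spread that was not tested. The highest value was that of WT mouse 5, the mouse with the most striatal marker RNA. *Etv1*, on chromosome 12 (38779380 to 38870484, plus strand), encodes the ETS factor ER81 of layer 5 neurons. Its level was 129.9, 132.6, 116.8, 108.3 and 108.2 CPM in the KO mice and 94.7, 126.5, 119.6, 124.1 and 110.9 CPM in the WT mice, and the genotypes overlapped except for 2 KO mice above the WT range and WT mouse 1 below the KO range. The log2 fold changes were 0.07 for *Bcl11b* (95% interval -0.08 to 0.22, FDR = 0.787) and 0.05 for *Etv1* (-0.09 to 0.19, FDR = 0.861) by edgeR's quasi-likelihood test. That of *Bcl11b* was 0.13 without WT mouse 5, 0.03 with the striatal marker mean as covariate, and from 0.0261 (without WT mouse 4) to 0.15 (without WT mouse 3) with each mouse left out.

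*Crym*, on chromosome 7 (120186380 to 120202111, minus strand), encodes mu-crystallin, a cytosolic protein that binds thyroid hormone and marks subcerebral projection neurons of layer 5, and it is also known in the striatum. It was at 54.3, 78.1, 81.1, 67.8 and 90.9 CPM in the KO mice and at 47.8, 39.4, 70.5, 59.2 and 52.0 CPM in the WT mice. All 5 KO mice were above the WT mean and 3 above all WT mice, 3 WT mice were below all KO mice, and the ranges overlapped between 54.3 and 70.5 CPM. Means were 74.4 ± 14.0 and 53.8 ± 11.8 CPM (SD, n = 5 each). The log2 fold change was 0.27 (SE 0.074, 95% interval 0.11 to 0.43, unadjusted p = 0.00224, FDR = 0.129, edgeR's quasi-likelihood test), the largest of the 9 and not past the threshold. DESeq2 gave 0.27 with FDR = 0.0293, which passed, and without KO mouse 1 edgeR's quasi-likelihood test gave 0.38 with FDR = 0.0417. Without KO mouse 4 it was 0.125, without WT mouse 5 it was 0.14, and without KO mouse 3 it was 0.22. Without both KO mouse 3 and WT mouse 5, the libraries that stand apart, it was 0.12 (FDR = 0.905, edgeR's quasi-likelihood test). Surrogate variables were estimated anew in each of these fits, 2 of them in the last and 3 in the others. The difference of mean log2(CPM + 1), which uses none, moved less. It was 0.50 without KO mouse 4, 0.46 without WT mouse 5 and 0.43 without KO mouse 3, against 0.47 in all mice. The surrogate variables took part of the difference, which was 0.47 without them (FDR = 0.379, edgeR's quasi-likelihood test), and the exact permutation test gave the same difference of log2(CPM + 1), 0.47, with an unadjusted p of 0.0397 (smallest possible 0.00794).

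*Crym* was higher in the libraries of lower RIN in both genotypes, and the genotypes were therefore set side by side within each RIN class. At a RIN of 9.5 to 9.8 the 3 KO mice were between 54.3 and 78.1 CPM and the 3 WT mice between 39.4 and 52.0 CPM, and the mean difference of log2(CPM + 1) was 0.51. At a RIN of 8.1 to 8.3 the 2 KO mice were at 81.1 and 90.9 CPM, the 2 WT mice were at 70.5 and 59.2 CPM, and the difference was 0.41. The KO mice were thus above the WT mice within both classes, which held for 1 of the 9 genes, beside 3.76% of all genes separated in the same direction in both classes. With RIN as the covariate the log2 fold change was 0.47 (FDR = 0.055, edgeR's quasi-likelihood test). For *Fezf2* the difference was 0.24 in the class of higher RIN, without overlap, and 0.08 in the other, with overlap. *Sox5* had KO mice within or below the WT values at high RIN (difference -0.06) and above them at low RIN (0.16), and *Etv1* had the opposite signs (0.16 and -0.12). *Tle4* had KO mice below the WT mice at low RIN alone (-0.09), and the other 4 genes overlapped in both classes. With only 2 or 3 mice of each genotype in a class, separation within 1 class is easily reached by chance. Its share over all genes was not computed, and whether genotype differences varied with RIN was not tested.

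**Figure D3:**
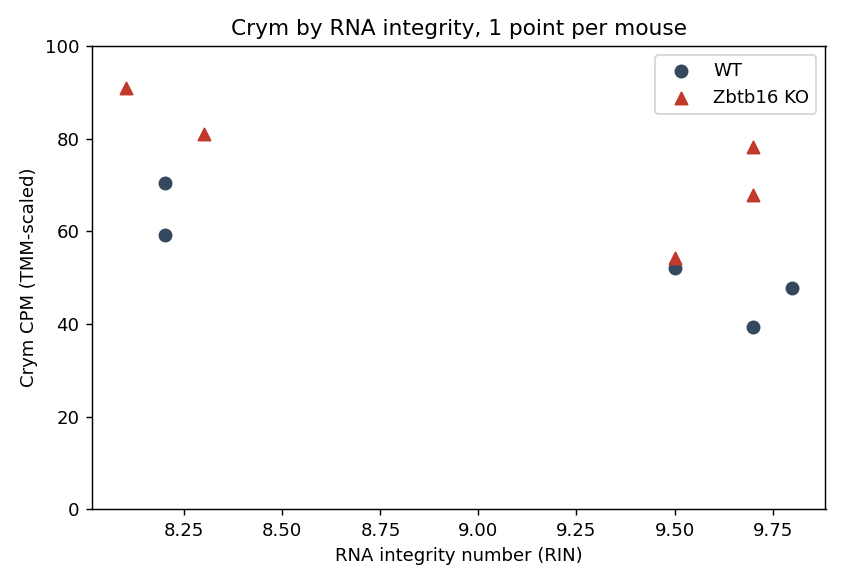
*Crym* in CPM (vertical axis) against RIN (horizontal axis), 1 point per mouse, with 5 WT mice as circles and 5 KO mice as triangles. In the left cluster the KO mice lie at 81.1 and 90.9 CPM and the WT mice at 59.2 and 70.5 CPM, and in the right cluster the KO mice lie from 54.3 CPM and the WT mice up to 52.0 CPM.

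**Figure D4:**
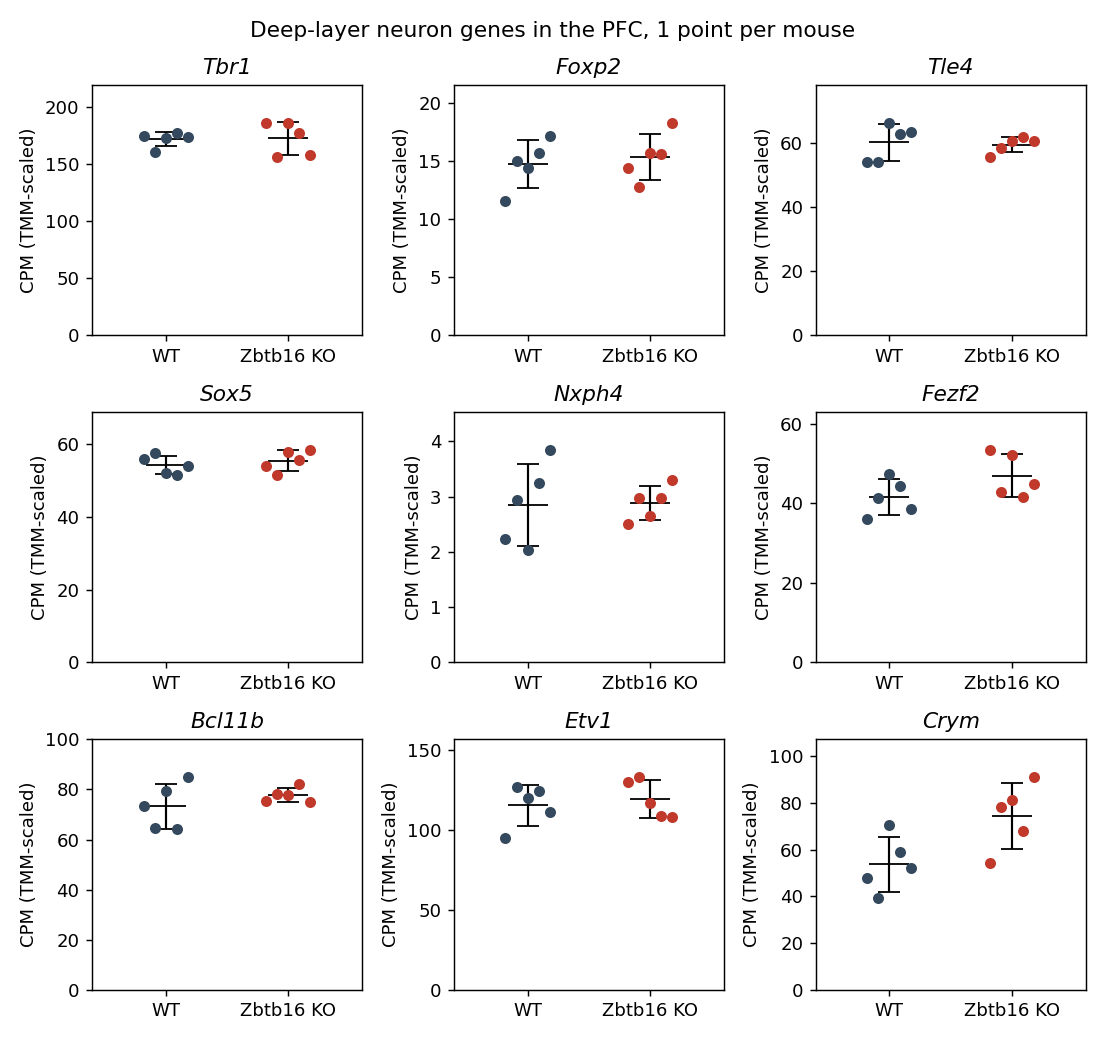
CPM of each deep-layer gene (vertical axes from 0), 1 point per mouse, with the mean and SD of 5 WT and 5 KO mice. For *Tbr1* the means are 171.6 and 172.3 CPM, and for *Crym*, with the largest difference, they are 53.8 and 74.4 CPM with overlapping ranges.

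Because *Tbr1* and *Bcl11b* stand for layers 6 and 5, their counts were compared within each library, a ratio that does not depend on scaling. The ratio of *Tbr1* to *Bcl11b* counts was 2.45, 1.99, 2.38, 2.15 and 2.10 in the KO mice and 2.37, 2.49, 2.18, 2.75 and 2.05 in the WT mice. The genotypes overlapped, with the lowest ratio in a KO mouse and the highest in WT mouse 4. On the log2 scale the means were 1.14 ± 0.126 and 1.24 ± 0.165 (SD, n = 5 each), a difference of -0.09 smaller than the spread among mice (p = 0.349, two-sided exact permutation test). *Bcl11b* is also known in striatal neurons and interneurons, whose part in the ratio was not tested. WT mouse 5, with the most striatal marker RNA, had the lowest ratio of the WT mice. The difference was -0.14 without WT mouse 5 (exact permutation p = 0.159) and -0.04 without WT mouse 4 (exact permutation p = 0.675).

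How the 9 genes varied together among mice was examined on deviations of log2(CPM + 1) from the mean of each genotype. Over the 36 pairs of genes, Pearson's r across 10 mice ran from -0.524 to 0.766 with a median of 0.036, so that deep-layer genes did not move as 1 block. No pair passed after adjustment over the 36. The highest was *Tle4* with *Crym* (r = 0.766, permutation p = 0.0111, adjusted p = 0.399; rho = 0.685, permutation p = 0.0338, adjusted p = 0.609), and r was 0.697 without the 2 mice farthest from the median. *Foxp2* with *Nxph4* followed (r = 0.656, permutation p = 0.0391, adjusted p = 0.704; rho = 0.770, permutation p = 0.0125, adjusted p = 0.45), and r was 0.812 without the farthest 2. The mice left out were those farthest for the first gene of each pair, *Tle4* or *Foxp2*, without regard to the second. For *Foxp2* with *Nxph4* they were WT mouse 1 and KO mouse 2, while WT mice 3 and 5, the farthest for *Nxph4*, were kept. The libraries of these pairs share depth and RIN class, whose part in the correlations was not tested.

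The same deviations were set against the mean of 9 striatal marker genes, because *Bcl11b*, *Foxp2* and *Crym* are also expressed in striatum. Of the 9 genes, *Nxph4* had the highest r (0.732, permutation p = 0.0149, adjusted p = 0.134; rho = 0.539, permutation p = 0.113, adjusted p = 0.34), which was 0.361 without WT mouse 5 and KO mouse 5 and so rests on those mice. For *Bcl11b* r was 0.581 (permutation p = 0.0817, adjusted p = 0.245; rho = 0.370, permutation p = 0.295, adjusted p = 0.442) and 0.329 without these mice. *Fezf2* had a negative r of -0.595 (permutation p = 0.0641, adjusted p = 0.245; rho = -0.661, permutation p = 0.0446, adjusted p = 0.34), and *Crym* had an r of 0.143 (permutation p = 0.705, adjusted p = 0.705; rho = 0.055, permutation p = 0.892, adjusted p = 0.892). *Foxp2* had an r of 0.524 (permutation p = 0.1205, adjusted p = 0.271) and a rho of 0.406 (permutation p = 0.248, adjusted p = 0.442). Without WT mouse 5 and KO mouse 5, r was -0.751 for *Fezf2*, -0.042 for *Foxp2* and 0.024 for *Crym*. None passed after adjustment over the 9.

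Among all 14344 genes, those whose deviations over the 10 mice were most like each deep-layer gene were ranked by Pearson's r, as a description. For *Tbr1* they were *Snrk* (0.971), *Inpp4a* (0.964) and *Wwc1* (0.957), and for *Foxp2* *Mettl13* (0.931), *Cdkl3* (0.930) and *Zfp941* (0.924). *Tle4* was followed most closely by *Foxl2* (0.967), *Cacna1h* (0.934) and *Tmem91* (0.916), *Sox5* by *Tmtc1* (0.933), *Thoc5* (0.923) and *Cul4a* (0.920), and *Nxph4* by *Zkscan7* (0.953), *Scube2* (0.950) and *Rarb* (0.949). For the layer 5 genes the nearest were *Nup153* (0.963), *Txndc11* (0.917) and *Gna15* (0.917) for *Fezf2*, and *Card9* (0.912) and *Drd5* (0.912) for *Bcl11b*. *Etv1* was nearest to *Cstf2* (0.968), *Mocos* (0.908) and *Snu13* (0.895), and *Crym* to *Rogdi* (0.976), *Syt17* (0.971) and *Arhgef28* (0.961). None of these genes was another of the 9. The highest r out of 14344 genes over 10 mice can be this high by chance alone, and no such background was computed. The ranking therefore does not show that these genes are expressed together. Some had few counts, among them *Foxl2* (0.783 CPM), *Scube2* (1.14 CPM) and *Card9* (1.21 CPM).

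Other genes of the deep layers were examined as lists. Of 11 further layer 6 and 6b genes, 0 passed the FDR by edgeR's quasi-likelihood test, with a median log2 fold change of 0.0046, and at an unadjusted p under 0.05 there were 1 higher and 1 lower. The one with the smallest p was *Syt6*, a synaptotagmin of corticothalamic neurons, at 25.0 ± 2.81 CPM in KO and 30.3 ± 2.30 CPM in WT mice (SD, n = 5 each), a log2 fold change of -0.27 (FDR = 0.11, edgeR's quasi-likelihood test), and DESeq2 called it alone in this list. Of 14 further layer 5 genes, 0 passed, with a median of 0.03, and at an unadjusted p there were 4 higher and 2 lower. *Pcp4*, a calmodulin-binding protein of deep-layer neurons, had the smallest p, with a log2 fold change of -0.17 and FDR = 0.0873 by edgeR's quasi-likelihood test, and was the 1 gene of this list called by DESeq2. By edgeR's quasi-likelihood test 1 layer 5 gene was lower with excitatory scaling, without KO mouse 4 or without WT mouse 2, and 1 was higher without KO mouse 2, while 1 layer 6 gene was lower with excitatory scaling or without KO mouse 5. Without surrogate variables the medians were 0.05 for the layer 6 and -0.01 for the layer 5 list.

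Of 10 regulators of cortical neuron fate, 1 passed. *Sox11*, a SOXC factor of immature neurons, was between 17.8 and 21.4 CPM in KO mice and between 13.1 and 16.1 CPM in WT mice, without overlap. Its log2 fold change was 0.42 (SE 0.070, FDR = 0.00759, edgeR's quasi-likelihood test), higher in 5 of 5 KO mice, and it did not pass without WT mouse 3, with limma or with the striatal marker mean as covariate. Of 5 genes known as a partner or targets of TBR1, 0 passed in edgeR or DESeq2, with a median of 0.10, 1 higher at an unadjusted p and none lower. *Grin2b*, an NMDA receptor subunit gene that TBR1 activates, was at 646 ± 40.9 CPM in KO and 587 ± 19.9 CPM in WT mice (SD, n = 5 each), a log2 fold change of 0.12 (FDR = 0.313, edgeR's quasi-likelihood test). Of 20 tested paralogs and pathway partners of the 9 genes, 0 passed, with a median of 0.04, and 5 were higher and 3 lower at an unadjusted p. *Tle2*, a paralog of *Tle4*, had a log2 fold change of -0.30 (FDR = 0.0818, edgeR's quasi-likelihood test) and was the 1 gene of this list called by DESeq2.

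Upper layer genes were used as the comparison within the cortex. Of 10, 2 passed, both higher in KO mice, with a median of 0.10, beside 0.844% of all genes called. The study had already named *Calb1* among the genes higher in KO mice in these data. The list was chosen with earlier results known, so that the call of *Calb1* adds no independent support. *Calb1*, a calcium-binding protein of upper layer neurons and interneurons, was at 188 ± 8.28 CPM in KO and 145 ± 7.11 CPM in WT mice (SD, n = 5 each), without overlap and with a log2 fold change of 0.38 (FDR = 0.000254, edgeR's quasi-likelihood test). *Mdga1*, a cell adhesion protein of superficial neurons, had a log2 fold change of 0.41 (FDR = 0.00677) with surrogate variables and 0.42 (FDR = 0.339) without them by edgeR's quasi-likelihood test. *Mdga1* was between 19.1 and 34.1 CPM in KO and between 18.3 and 23.7 CPM in WT mice, with overlap. With limma neither was called, and 1 gene was called without WT mouse 5, with RIN, with the striatal marker mean as covariate or with a replicate block. In this list 3 genes were called higher without KO mouse 2, without KO mouse 5 or without WT mouse 1. Whether the upper layer genes differed from the deep-layer genes in their response was not tested.

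Markers of other cells in the tissue gave 0 calls in each list by edgeR's quasi-likelihood test, and DESeq2 called 2 excitatory and 2 striatal genes, all higher in KO mice. In the excitatory list edgeR's quasi-likelihood test called 3 genes higher without KO mouse 2, 1 higher without WT mouse 2, 1 higher and 1 lower without KO mouse 5, and 1 higher with no low-count filter. Of 6 excitatory neuron genes, 3 were higher at an unadjusted p under 0.05, and *Nrn1* had the smallest p (log2 fold change 0.15, FDR = 0.0597, edgeR's quasi-likelihood test). Of 8 interneuron genes, all had negative log2 fold changes, 4 of them at an unadjusted p under 0.05, with a median of -0.08 and *Vip* as the smallest p (-0.18, FDR = 0.189, edgeR's quasi-likelihood test), and their sum was between 815 and 898 CPM in KO and between 865 and 956 CPM in WT mice. Of 9 striatal genes tested, 7 were positive, 5 of them at an unadjusted p under 0.05, with a median of 0.21 and *Gpr6* as the smallest p (1.22, FDR = 0.0575, edgeR's quasi-likelihood test), and their sum was between 329 and 493 CPM in KO and between 298 and 594 CPM in WT mice. The glial and vascular lists had medians from -0.12 (endothelial, 3 genes) to 0.11 (oligodendrocyte precursor, 3 genes), with *Pdgfra*, *Slc1a3*, *Cx3cr1* and *Flt1* at log2 fold changes of 0.11, 0.14, -0.13 and -0.17. At an unadjusted p there were 2 astrocyte and 1 oligodendrocyte precursor gene higher, and 1 microglial and 1 endothelial gene lower. The part of these cell types in the values of the deep-layer genes was not tested.

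**Figure D5:**
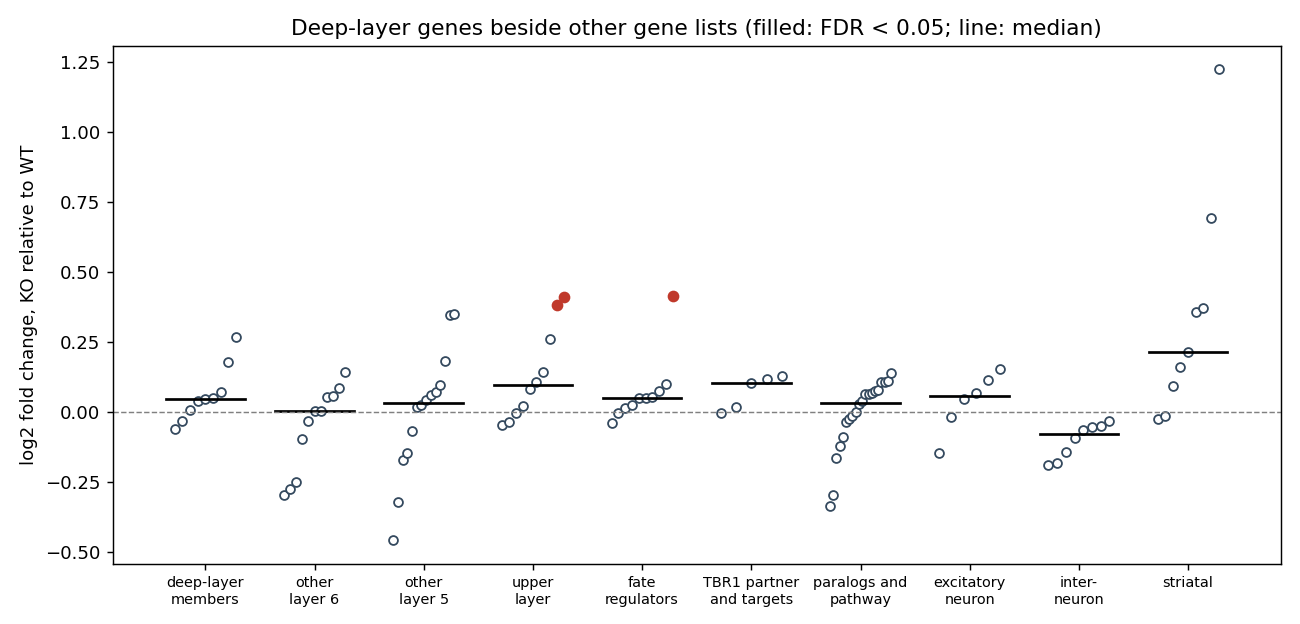
Log2 fold change in KO relative to WT mice (vertical axis) of each tested gene, by list, with filled points at FDR under 0.05 by edgeR's quasi-likelihood test and a line at the median of each list. The 9 deep-layer genes have no filled point and a median of 0.05, and the filled points are *Calb1* and *Mdga1* in the upper layer list and *Sox11* among the fate regulators.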

How the data were processed

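PFC RNA from 5 KO and 5 WT mice was sequenced as stranded, poly(A)-selected libraries. The authors aligned reads to mm10 with STAR 2.7.1a and counted unique reads on exons of protein-coding Gencode M21 genes with HTSeq 0.9.1, per the labels and methods, and the deposited values are raw counts. Which strand setting HTSeq was run with is not given in the sources used here. None of the 9 genes shares exon bases with another protein-coding gene.

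Counts were analysed with edgeR 4.0.16 in R 4.3.3, with TMM scaling, the default low-count filter, 3 surrogate variables from sva 3.50.0 (seed 1, on log2(CPM + 1)) and Benjamini-Hochberg adjustment at 0.05. Exact permutation tests used all splits into 5 and 5 mice, and correlations over mice used 100000 permutations. A RIN correlation was replaced by values within RIN classes, because RIN fell into separate clusters. P-values were added to correlations first meant as description. The genes named were the 9, each companion list's genes past the FDR or else its smallest p, and the 3 genes most like each of the 9, except for genes not reported here. The 9 genes and the lists were chosen with earlier results of these data known. Alternatives were DESeq2 1.42.0, limma 3.58.1, other covariates, scalings and filters, and each mouse left out. Depth was 30220122 to 51231439 counts, and floors cover counting error only. Each mouse is 1 library, so that spread between mice includes that of the preparation. Scripts were tested on simulated counts that held no hidden differences between libraries, with none or 2 surrogate variables. The fit with 3 surrogate variables was not tested in this way. Tables and plots were made in Python 3.11.15 (scipy 1.17.1, numpy 2.4.6, matplotlib 3.10.9, pandas 2.3.3).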

Additional observations from a re-analysis of the deposited data

Results flagged for a closer look

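One value stood apart from its group. *Tbr1* in WT mouse 2 was at 160.5 CPM, the lowest of the 5 WT mice, and its gap to the next was 0.724 of the range of the group, above Dixon's critical value of 0.71 for 5 samples. With 20 groups examined (9 genes and the ratio in each genotype), chance alone gives about 1 such value in 20. The mean *Tbr1* level in KO mice was no further from the WT mean than the spread between mice with or without this mouse, as the log2 fold change was 0.02 without it (FDR = 0.894, edgeR's quasi-likelihood test).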

How the results depend on the processing

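Of 189 log2 fold changes of the 9 genes under alternatives, 170 kept their direction and side of the threshold, 17 changed sign and 2, both of *Crym*, newly passed, with a lowest adjusted p of 0.0293. Deep-layer genes past the FDR and higher in KO mice numbered 1 with DESeq2 and 0 to 1 when each mouse was left out (1 without KO mouse 1); none was lower. Scaling to excitatory neuron genes turned *Tbr1* to -0.0333, *Foxp2* to -0.0472, *Sox5* to -0.0123 and *Nxph4* to 0.0137. The median over all genes in that fit was -0.0357. The excitatory list summed to 8108 CPM in KO and 7623 CPM in WT mice, which lowers values taken relative to it in KO mice. *Foxp2* also turned with 2 surrogate variables (-0.0146) or the striatal mean as covariate (-0.0215), and *Nxph4* without surrogate variables (0.015), with RIN (0.0158) and without KO mouse 3 and WT mouse 5 together (0.0867), an alternative chosen after seeing the data. With each mouse left out, *Foxp2* ranged from -0.0794 to 0.0693, *Nxph4* from -0.113 to 0.120, *Crym* from 0.125 to 0.375, *Bcl11b* from 0.0261 to 0.152 and *Tle4* from -0.145 to -0.0003. The permutation difference of *Tbr1* was -0.003 on plain CPM, and relative to the excitatory list it was -0.0849 for *Tbr1*, -0.028 for *Foxp2*, -0.0365 for *Nxph4*, -0.0356 for *Etv1* and -0.0544 for *Sox5*; with mice left out it ran from -0.0256 to 0.0375 for *Tbr1*, -0.0259 to 0.115 for *Foxp2*, -0.0484 to 0.023 for *Tle4*, -0.0529 to 0.116 for *Nxph4* and -0.0168 to 0.0866 for *Etv1*. That of *Crym* lost its call relative to the excitatory list (0.38, exact permutation p = 0.0873) and with 8 of the 10 mice left out in turn (exact permutation p from 0.0556 to 0.0794), where fewer mice entered the test and the difference was 0.364 to 0.508 against 0.467 in all mice. The log2 ratio of *Tbr1* to *Bcl11b* was -0.0916 in all mice, ran from -0.14 to -0.04 with mice left out and was -0.033 after surrogate variables. Same-numbered mice share only a number (r of their deviations -0.106 to 0.173, own best match in 2 of 5), and a replicate block without surrogate variables gave 24 calls against 30 without it, 0 of the 9 genes, and *Nxph4* at 0.0372. Over all genes the calls numbered 6 with limma, 7 with the striatal covariate, 30 without surrogate variables, 38 with RIN, 57 with 2 surrogate variables, 233 with DESeq2 and 39 to 248 with mice left out; the causes were not tested. Reads were fewest for *Nxph4*, and their part in its wide interval beside that of the spread between mice was not tested.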
